A study of Mus musculus with 4 samples.

Results

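The proneural basic helix-loop-helix (bHLH) genes *Neurog1*, *Neurog2*, *Atoh1*, *Neurod1*, *Neurod4*, *Olig1*, *Olig2*, *Olig3* and *Ptf1a* were followed by name, 9 of the 20807 autosomal protein-coding genes of the GENCODE vM21 annotation. Their CpG methylation was read in the brains of 4 male mouse embryos at E11.5 (embryonic day), 1 whole-genome bisulfite library for each group. The groups were *Tet1* knockout (KO) and wild type (WT), each from dams on a custom diet with 30 ppm folic acid (FA; excess) or 3 ppm FA (control). All 4 embryos were of the line labelled 129S6.cg Tet1<tm1Koh>, an inbred 129S6 background into which the KO allele was backcrossed from C57BL/6, and all dams were *Tet1* heterozygous and ate a diet with an antibiotic. *Tet1* encodes a dioxygenase that oxidises 5-methylcytosine. The KO is constitutive, so every cell of the tissue, dissected from forebrain to hindbrain, carries it. Genotypes were taken from the labels, as the reads do not show whether *Tet1* is transcribed. The pregnancy numbers in the titles differ between all embryos, so KO and WT were not littermates, and litter and genotype cannot be told apart. The same embryo numbers stand in the sample list of the study, which gives a neural tube defect (NTD) for each of the KO embryos and a normal phenotype for each WT, so defect and genotype cannot be told apart either.

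Proneural bHLH factors pair with broadly expressed E proteins and switch on the genes that turn a dividing neural progenitor into a neuron. Notch signalling holds neighbouring cells back through Hes and Hey repressors, and Id proteins capture the E partner. The neurogenins start the programme, the NeuroD factors act later in young neurons, *Atoh1* and *Ptf1a* specify hindbrain and cerebellar neurons, and the Olig factors pattern progenitors and, later, start the oligodendrocyte lineage. Genes of this kind often lie in broad CpG-rich valleys that stay unmethylated in many tissues. Bisulfite sequencing reads 5-methylcytosine and its first oxidation product, 5-hydroxymethylcytosine, as one signal. A bulk brain mixes many cell types, so fewer cells with a methylated copy and less methylation per cell cannot be told apart.

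Mean coverage of the autosomal CpGs was 13.2 to 21.2 reads, and 14907672 CpGs had at least 5 reads in all 4 libraries. Their mean level was 81.4% to 83.5%, with KO above WT at each diet. Mitochondrial CpGs, which are taken as unmethylated, read 0.914% to 0.938%, the background of incomplete conversion. Start-site windows of the neural progenitor markers *Sox1*, *Sox2*, *Pax6* and *Nes* were at 0 to 2.83% in the 4 libraries, while those of the erythroid *Hba-a1* and *Hbb-y* were at 51.6% to 82.5%. Of these, *Hba-a1* was called lower in KO at 3 ppm, at 57.4% against 82.5% over 3 CpGs (adjusted p = 0.0388), and read 69.2% against 70.0% at 30 ppm. *Hbb-y* read 65.1% against 58.8% at 30 ppm and 51.6% against 57.5% at 3 ppm, and was not called. Their part in the results was not tested. Endothelial *Cdh5* and *Tek* were at 74.4% to 89.7%, endothelial *Kdr* at 2.26% to 8.39% and mesenchymal *Pdgfra*, *Twist1* and *Prrx1* at 0.384% to 6.06%. Such levels do not measure expression, so they are a weak check of the tissue. With 1 library per group no value has an SD. Intervals are 95% intervals from read counts and cover counting error only.

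Each gene was read in 4 regions: the start window (within 1 kb of the start site), the flanks from 1 to 5 kb upstream and downstream, and the gene body. Methylated and total reads were summed over a region. A region was called when Fisher's exact test gave an adjusted p under 0.05 and the levels differed by at least 10 percentage points (points below). The regions of one gene are not independent. Most members are short, so the body shares CpGs with the start window and the downstream flank. The CpG-dense centres were thinly covered: the start windows of *Neurog2*, *Neurog1* and *Ptf1a* gave 3 of 165, 8 of 137 and 15 of 143 reference CpGs, and those of *Atoh1*, *Olig1* and *Olig3* 34 of 111, 37 of 132 and 26 of 78. The figures were 37 of 62 for *Neurod1*, 59 of 97 for *Olig2* and 13 of 16 for *Neurod4*. For the first 3, the start window is therefore a statement about a few CpGs.

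Across the 36 regions of the 9 genes, methylation was higher in KO than in WT at both diets in 26. It was lower at both in 2, equal at both in 1, and split between the diets in 7. Most genes shared this direction. In the start window 6 (30 ppm) and 7 (3 ppm) of 9 members lay above 0, against 77.3% and 75.0% of all genes. Downstream they were 8 and 7, against 76.9% and 66.5%, and in the body 6 and 7, against 84.3% and 68.8%. The upstream shares are given further on. The calls were fewer: 4 regions at 30 ppm and 5 at 3 ppm, all with the higher level in KO, and 2 of these regions, 1 start window and 1 upstream flank, were called at both diets. Over all genes, 8.01% of start windows, 1.44% of upstream flanks, 3.36% of downstream flanks and 1.65% of bodies were called higher in KO at both diets. In the start window, 1 member was called higher in KO at 30 ppm and 2 at 3 ppm, against a background of 15.4% and 16.6% of all genes. In the upstream flank the counts were 2 and 1, against 4.80% and 3.45%. In the downstream flank they were 1 and 1, against 9.19% and 6.59%, and in the gene body 0 and 1, against 3.53% and 3.41%. No member was called lower in KO, which over all genes befell 0.331% and 0.381% of start windows, 0.0543% and 0.163% of upstream flanks, 0.108% and 0.143% of downstream flanks and 0.114% of bodies at either diet. When each test was scaled by the spread of all genes (z divided by its robust SD), 2 of the 9 calls remained, those of the downstream flanks of *Neurod1* at 30 ppm (adjusted p = 0.0297) and of *Olig3* at 3 ppm (adjusted p = 0.00360). Out of 9 genes, counts this small cannot be read as a difference from the background.

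**Figure D1:**
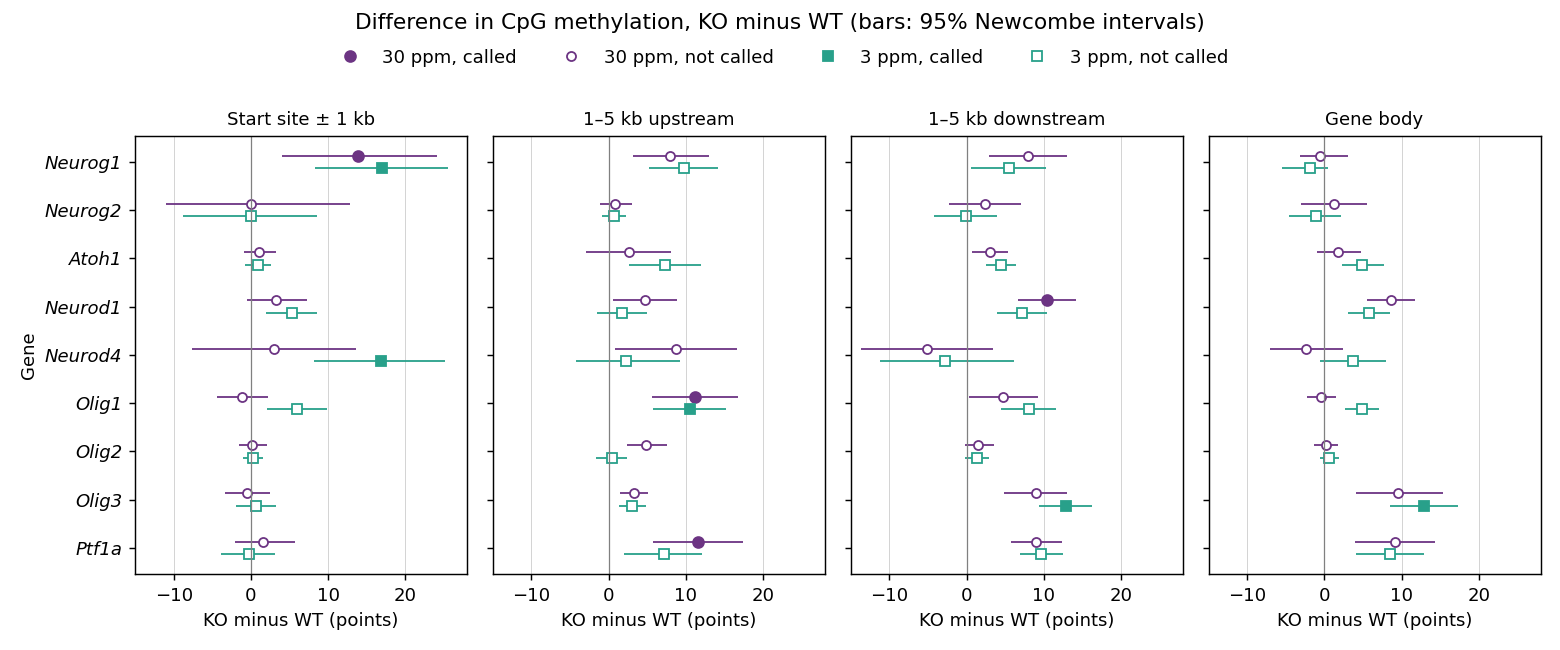
Difference in CpG methylation between KO and WT (x axis, points) for the 9 genes (y axis) in 4 regions, at 30 ppm (circles) and 3 ppm (squares). Bars are 95% Newcombe intervals from read counts and filled symbols mark the 4 calls at 30 ppm and the 5 at 3 ppm, such as the *Neurog1* start window and the *Olig1* upstream flank at both diets.

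In the start window the members' median difference was 1.07 points (30 ppm) and 0.861 points (3 ppm), below the medians of 3.93 and 3.31 points over all genes. In the upstream flank the members' medians were 4.80 and 3.07 points, above the 2.27 and 1.03 points of all genes, and all 9 members lay above 0 at both diets, as did 74.6% (30 ppm) and 62.7% (3 ppm) of all genes. In the downstream flank they were 4.78 and 5.45 points, against 2.71 and 1.38, and in the body 1.26 and 4.82 points, against 1.99 and 0.947. These are descriptions of 9 chosen genes whose levels differ from those of most genes. The members' median WT level at 30 ppm was 17.98% in the upstream flank, where that of all genes was 82.6%.

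**Figure D2:**
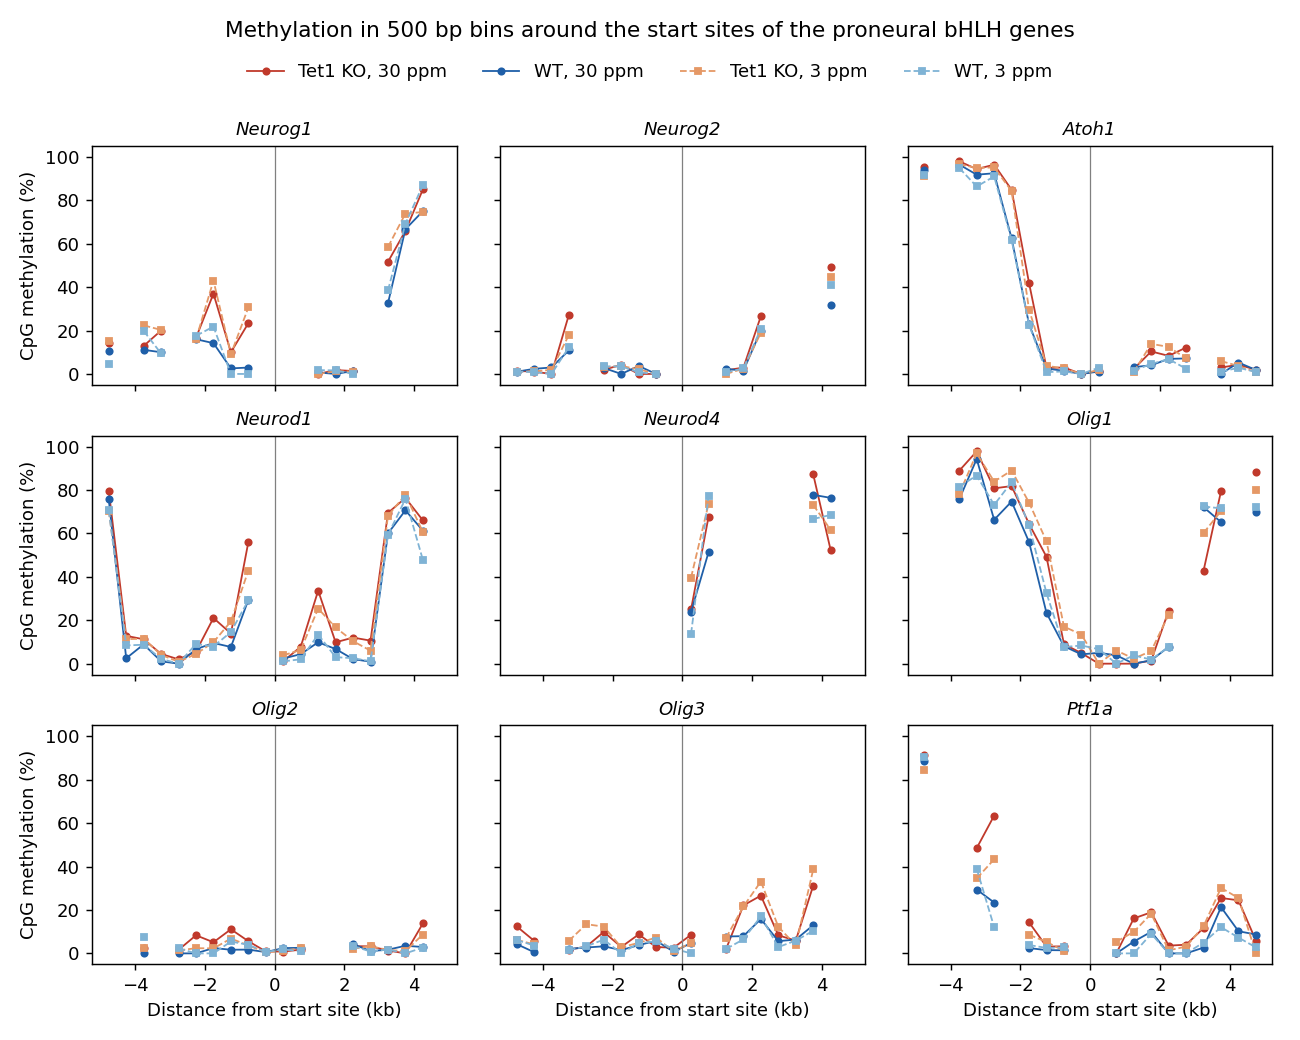
CpG methylation (y axis, %) in 500 bp bins against distance from the start site (x axis, kb, gene direction to the right) for each gene in the 4 libraries, with bins of under 3 CpGs left out. *Olig2* stays under 10% in both WT libraries in all 14 bins shown. *Olig1*, *Atoh1* and *Neurod1* show slopes where the KO lines run above the WT lines at both diets.

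*Neurog1* and *Neurog2* encode neurogenins, which commit progenitors to the neuronal fate. *Neurog1* lies on the minus strand at chr13:56250478-56252163 (GRCm38). Its start window read 15.5% in KO against 1.67% in WT at 30 ppm, and 18.3% against 1.35% at 3 ppm, from 60 to 104 reads. Both KO libraries lay above both WT libraries, by 13.8 points at 30 ppm (95% interval 4.06 to 24.1, Fisher's exact test, adjusted p = 0.0321) and 16.9 points at 3 ppm (8.31 to 25.5, adjusted p = 0.00168). Of the 8 CpGs in this window, 1 carried most of the difference. At position -992 (bp from the start site, negative upstream), 10 of 15 and 11 of 18 KO reads were methylated, against 1 of 9 and 0 of 8 WT reads. Without this CpG the differences were 1.79 points (adjusted p = 1) and 7.79 points (adjusted p = 0.192), and neither call was kept. At -972 and -902, KO at 3 ppm had 4 of 16 methylated reads each. The other 5 CpGs, from -522 to 606, had 0 methylated reads in both KO libraries and 1 in all in WT. With every listed CpG counted, whatever its depth, the window held 48 CpGs. By the same test it then differed by 2.97 points for 30 ppm (adjusted p = 0.307) and 5.46 points for 3 ppm (adjusted p = 0.000110). The second difference was past the p-value but short of 10 points, so neither diet kept a call.

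**Figure D3:**
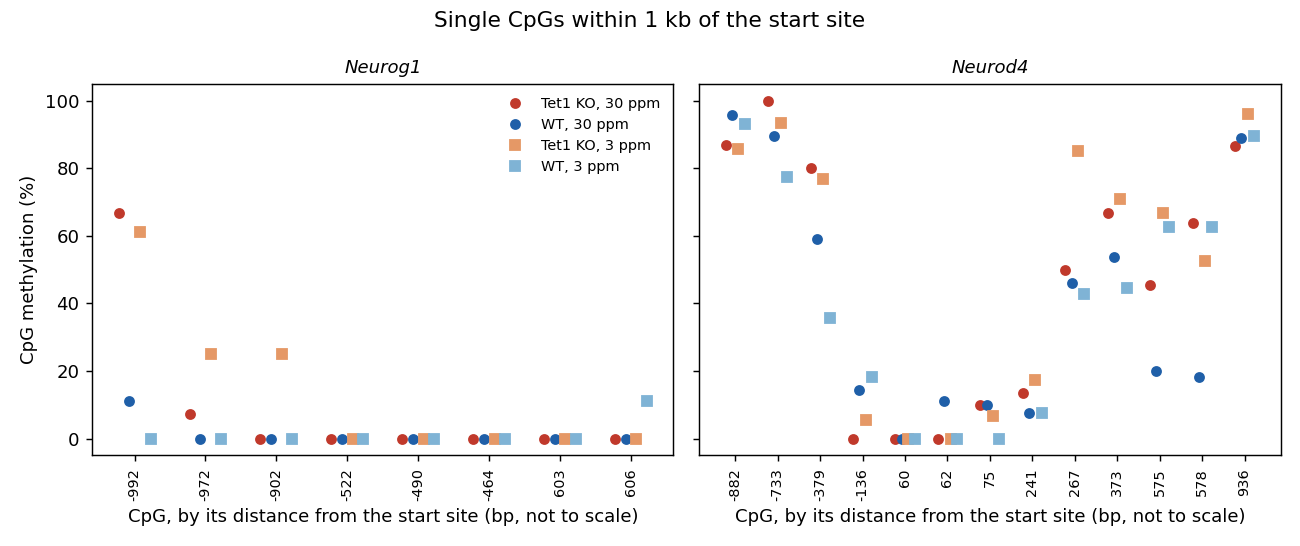
Methylation of single CpGs (y axis, %) in the start windows of *Neurog1* and *Neurod4*, ordered by distance from the start site (x axis, bp, not to scale) in the 4 libraries. In *Neurog1* both KO libraries lie well above both WT libraries at the CpG at -992. At -972 both KO libraries leave 0, that of 30 ppm with 1 of 14 reads, and at -902 only that of 3 ppm does. In *Neurod4* the 5 CpGs from -136 to 241 stay low while those further out are higher.

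The difference at *Neurog1* went on upstream. The flank read 19.4% against 11.4% (KO against WT, 30 ppm) and 24.5% against 14.7% (3 ppm). It was higher in KO by 7.95 points (3.18 to 13.0, adjusted p = 0.0161) and 9.76 points (5.25 to 14.1, adjusted p = 0.000909), past the p-value but short of 10 points. Among windows of 300 bases with at least 5 CpGs and no annotated UTR, the one from -2009 to -1710 had the largest mean difference. In this window KO read 37.7% and WT 15.8% at 30 ppm, then 40.6% against 23.4% at 3 ppm, over 7 CpGs. As the window was picked for its difference, no test is given. Nearer the start, the bin from 1 to 0.5 kb before it read 23.4% and 30.6% in KO against 2.94% and 0 of 36 reads in WT, over 4 CpGs. These 4 CpGs belong to the start window and include the one at -992, so this is not a further difference. At 30 ppm, KO had 1 of 14 methylated reads at -972, 0 of 11 at -902 and 0 of 7 at -522. The reference sequence of the window from -2009 to -1710 is printed in gene direction with CpGs in capitals, to show how few and scattered its CpGs are.
Neurog1, chr13:56253873-56254172, minus strand: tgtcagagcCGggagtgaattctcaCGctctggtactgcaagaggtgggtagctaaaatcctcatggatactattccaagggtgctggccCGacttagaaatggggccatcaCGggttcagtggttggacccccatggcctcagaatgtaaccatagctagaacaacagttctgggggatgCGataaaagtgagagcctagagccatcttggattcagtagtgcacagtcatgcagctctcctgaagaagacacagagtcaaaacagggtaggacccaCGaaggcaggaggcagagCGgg
The downstream flank read 25.9% against 17.9% at 30 ppm (7.93 points, adjusted p = 0.0173) and 30.0% against 24.6% at 3 ppm (5.45 points, adjusted p = 0.125). The body, with 9 CpGs, was at 0 in both KO libraries, 0 of 103 and 0 of 187 reads, which allow levels of up to 2.91% and 1.60%. WT bodies read 0.575% and 1.90%.

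*Neurog2*, at chr3:127633135-127635631 on the plus strand, gave no call. Its start window held 0 methylated reads in each library, of 26 and 41 reads in KO and 31 and 40 in WT, which allows levels of up to 11.54% and 7.32% in KO. The upstream flank was low throughout, at 3.83% and 3.37% in KO and 3.03% and 2.64% in WT. Its differences, 0.806 points (-1.15 to 2.96) and 0.721 points (-0.903 to 2.28), have intervals that end below 3 points. Downstream, KO read 18.9% and 16.6%, and WT 16.5% and 16.6%. Its body, at 8.83% and 5.48% in KO and 7.57% and 6.50% in WT, was higher in KO at 30 ppm and lower at 3 ppm, neither past the test.

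*Atoh1*, at chr6:64729125-64731245, specifies granule neurons and other rhombic lip derivatives. It lies on the plus strand. Its start window was low in all 4 libraries, at 2.19% and 2.23% in KO and 1.11% and 1.37% in WT. The downstream flank read 7.02% against 4.04% at 30 ppm (2.98 points, adjusted p = 0.0522), and 7.95% against 3.49% at 3 ppm (4.47 points, adjusted p = 0.000172). All 4 levels stayed under 10%, and both differences were short of 10 points. The body, which shares CpGs with that flank, read 5.49% against 3.72% at 30 ppm (adjusted p = 0.367) and 8.36% against 3.44% at 3 ppm (adjusted p = 0.00168). The upstream flank read 50.5% against 47.9% at 30 ppm (adjusted p = 0.661) and 55.6% against 48.3% at 3 ppm (7.31 points, adjusted p = 0.0288). It crossed the edge of the valley, from 0.826% in WT at 3 ppm between 1.5 and 1 kb before the start to over 86% beyond 2.5 kb. In the bin from 2.5 to 2 kb before the start, on this slope, KO read 84.8% and 84.3%, and WT 62.5% and 61.7%, over 3 CpGs.

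*Neurod1* and *Neurod4* encode factors of young neurons. *Neurod1*, on the minus strand at chr2:79452521-79456751, lies inside the annotated span of *Cerkl* on the same strand. Its downstream flank read 35.4% in KO against 24.9% in WT at 30 ppm, higher by 10.5 points (6.69 to 14.2, adjusted p = 2.62e-06, called). At 3 ppm it read 31.8% and 24.6%, 7.21 points apart (3.93 to 10.4, adjusted p = 0.000337). KO was above WT at both diets at 28 of the 71 CpGs of this flank and below at both at 2. The body followed, at 26.8% and 18.2% for 30 ppm and 24.6% and 18.8% for 3 ppm, differences of 8.61 and 5.82 points (adjusted p = 3.68e-07 and 0.000205). Within the gene, the bin from 1 to 1.5 kb after the start read 33.6% and 25.4% in KO, and 9.87% and 13.4% in WT. The start window was at 11.2% and 11.6% in KO and 7.95% and 6.30% in WT, past the test at 3 ppm (5.27 points, adjusted p = 0.0139) and not at 30 ppm (3.29 points, adjusted p = 0.271). Without 1 CpG at 2832 bp after the start, the called difference was 9.80 points and fell short of the rule.

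*Neurod4*, on the minus strand at chr10:130268152-130280240, stood apart in its levels. Its start window was of intermediate level and CpG-poor, with 16 reference CpGs and a GC content of 41.4%, where the other members had 62 to 165 CpGs. It read 53.6% against 50.6% at 30 ppm (3.03 points, -7.69 to 13.6, adjusted p = 0.837). At 3 ppm KO read 59.1% and WT 42.3%, 16.8 points apart (8.13 to 25.1, adjusted p = 0.00159), and was called. With the robust z the adjusted p was 0.374 and the call was lost, and the mean of the CpG fractions differed by 9.48 points. Between the diets these differences had a Wald adjusted p of 0.387, so they were not shown to differ. The 5 CpGs from -136 to 241 had 0 to 4 methylated reads each per library, of 7 to 23. The upstream flank, the downstream flank and the body read 71.8% to 87.6% in all libraries, and *Neurod4* was lower in KO, short of a call, in the downstream flank, where KO read 76.3% and 71.8% and WT 81.5% and 74.5%.

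The 300 bases before the start sites of *Olig2* and *Neurod4* show the contrast in sequence. They were chosen for this purpose after the values were seen. That of *Olig2* holds 20 CpGs, of which 6 were read at 0 to 1.89%, and that of *Neurod4* holds 4, of which 1 was read, from 7 to 18 reads.
Olig2, chr16:91225157-91225456, plus strand: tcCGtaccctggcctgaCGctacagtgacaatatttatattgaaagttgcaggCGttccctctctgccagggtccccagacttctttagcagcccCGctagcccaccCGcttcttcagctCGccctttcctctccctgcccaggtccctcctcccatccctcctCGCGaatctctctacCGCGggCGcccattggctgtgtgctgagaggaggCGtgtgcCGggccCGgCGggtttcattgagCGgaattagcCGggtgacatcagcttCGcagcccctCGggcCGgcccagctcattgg
Neurod4, chr10:130280241-130280540, minus strand: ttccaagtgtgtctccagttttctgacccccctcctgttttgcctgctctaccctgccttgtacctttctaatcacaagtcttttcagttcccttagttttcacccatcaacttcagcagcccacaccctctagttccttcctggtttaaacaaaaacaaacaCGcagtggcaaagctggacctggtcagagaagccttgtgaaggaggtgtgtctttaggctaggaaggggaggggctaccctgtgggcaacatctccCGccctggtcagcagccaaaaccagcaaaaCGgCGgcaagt

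The Olig genes, *Olig1* and *Olig2* on chromosome 16 and *Olig3* on chromosome 10, are described in turn. They pattern progenitors, and *Olig1* and *Olig2* also act in oligodendrocyte precursors. *Olig1*, at chr16:91269772-91271933, had the only flank called at both diets by Fisher's exact test. The limma model over all 4 libraries, described further on, did not call it (adjusted p = 0.0721). Its upstream flank read 72.4% (KO) against 61.2% (WT) at 30 ppm, and 78.4% against 67.9% at 3 ppm. The differences were 11.2 points (5.55 to 16.7, adjusted p = 0.00293) and 10.5 points (5.79 to 15.2, adjusted p = 0.000465). At 26 of its 40 CpGs KO was above WT at both diets, and at 3 it was below at both. Both values sit just above the limit of 10 points: without the most influential CpG of each diet they were 10.1 points (30 ppm) and 9.54 points (3 ppm). Both calls were lost with a minimum of 10 reads (10.5 points, adjusted p = 0.0547, and 8.54 points, adjusted p = 0.0628) and with the robust z (adjusted p = 0.144 and 0.132). Close to the start, *Olig1* was the member with the largest difference between KO libraries. Its start window read 4.62% in KO at 30 ppm and 13.2% in KO at 3 ppm, with WT at 5.74% and 7.32%, and its body 1.84% and 7.18% in KO, with WT at 2.22% and 2.36%. KO at 3 ppm was the highest of the 4 libraries in both. Downstream, KO read 33.6% and 33.3%, and WT 28.8% and 25.2%, a difference of 4.78 points (adjusted p = 0.136) and of 8.05 points (adjusted p = 0.000314).

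The window of 300 bases from -1266 to -967, free of annotated UTR, had the widest mean gap at *Olig1*. KO read 49.6% (40.8 to 58.4) and WT 19.0% (13.0 to 26.9) at 30 ppm, then 53.1% (45.8 to 60.2) and 29.8% (22.3 to 38.4) at 3 ppm, from 121 to 179 reads over 9 CpGs. As it was picked for its difference, no test is given. The sequence is printed because most of it lies in the called *Olig1* flank, while its last CpG lies in the start window, which was not called.
Olig1, chr16:91268506-91268805, plus strand: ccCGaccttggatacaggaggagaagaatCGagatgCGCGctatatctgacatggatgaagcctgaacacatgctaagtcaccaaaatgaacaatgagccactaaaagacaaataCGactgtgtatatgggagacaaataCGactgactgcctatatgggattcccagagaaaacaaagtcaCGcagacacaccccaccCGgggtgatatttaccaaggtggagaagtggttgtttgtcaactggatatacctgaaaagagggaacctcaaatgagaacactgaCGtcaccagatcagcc

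*Olig2*, at chr16:91225457-91228677, was low throughout. Its start window read 2.02% and 1.99% in KO and 1.83% and 1.67% in WT, and differences of 0.190 points (-1.50 to 2.03) and 0.315 points (-1.04 to 1.58) have intervals that reach no higher than 2.03 points. Its upstream flank read 5.91% against 1.11% at 30 ppm, 4.80 points apart (adjusted p = 0.00306), but 3.34% against 2.85% at 3 ppm, 0.486 points apart (adjusted p = 0.928). The Wald adjusted p for a change with diet was 0.234. All 14 bins of *Olig2* with 3 or more CpGs lay under 10% in both WT libraries. KO at 30 ppm read 11.1% in the bin from -1500 to -1000 bp and 13.8% in that from 4000 to 4500 bp. WT at 30 ppm read 1.68% and 2.94% there, and at 3 ppm KO read 6.81% and 8.70%.

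*Olig3*, at chr10:19356533-19358604, patterns the dorsal hindbrain and spinal cord. Its start window did not separate the genotypes, at 3.33% and 4.41% in KO and 3.79% and 3.71% in WT. Upstream, at 5.68% and 6.65% in KO and 2.39% and 3.58% in WT, the differences were 3.29 and 3.07 points (adjusted p = 0.00724 and 0.0137). The body and the downstream flank were called at 3 ppm. The flank read 19.0% against 10.05% at 30 ppm (8.94 points, 4.89 to 13.1, adjusted p = 0.000280), and 20.7% and 7.84% at 3 ppm (12.8 points, 9.42 to 16.2, adjusted p = 6.79e-11, called). The body read 16.9% and 7.40% at 30 ppm (9.55 points, adjusted p = 0.00222), and 17.3% and 4.48% at 3 ppm (12.9 points, adjusted p = 2.15e-07, called). These shared CpGs, and 1 of them, 2069 bp after the start, had 18 of 30 methylated reads in KO and 3 of 28 in WT at 3 ppm. Without it the flank kept its call at 11.47 points and the body fell to 9.67 points. Between 3.5 and 4 kb after the start, KO read 31.2% and 38.7%, and WT 13.0% and 10.4%. *Olig3* and *Neurod4* lie on the chromosome of *Tet1*, 43.6 and 67.4 Mb away from it. No CpG in any region of the 9 genes had the pattern taken for a strain variant. That pattern was at least 80% in both libraries of one genotype and at most 5% in both of the other. A variant at a CpG of lower level would not be found by this rule, and the *Olig3* regions read 20.7% or less.

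*Ptf1a*, at chr2:19445663-19447501, specifies inhibitory neurons of the cerebellum and dorsal neural tube. Its start window was low in all libraries, 2.76% and 2.01% in KO and 1.23% and 2.26% in WT. Upstream, KO read 34.0% and WT 22.4% at 30 ppm, 11.6 points apart (5.72 to 17.4, adjusted p = 0.00306, called), and 29.9% and 22.8% at 3 ppm, 7.13 points apart (2.02 to 12.1, adjusted p = 0.0603). Downstream, levels were 15.3% against 6.30% (30 ppm) and 15.1% against 5.36% (3 ppm), KO the higher. These differences, 9.01 and 9.70 points, had adjusted p-values of 1.66e-06 and 2.32e-09 and stayed just under 10 points. The body read 16.7% and 7.59%, then 14.2% and 5.71%. Without the CpG at -2698, where 12 of 13 KO reads and 5 of 21 WT reads were methylated at 30 ppm, the upstream difference was 9.68 points.

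*Ptf1a* was also the 1 member with a differentially methylated region (DMR) in the authors' lists for KO versus WT, within 5 kb of its start or in the gene. The hyper DMR of 303 bp belongs to the 30 ppm list, from 4.28 to 3.98 kb before the start, and overlaps the antisense record *Ptf1aos*. With this 1 of 9 members, the background was 12.2% of all genes, and at 3 ppm, with 0 members, it was 12.5%. The span searched grows with gene length, and these shares were not matched for it. Members other than *Neurod4* are 1.69 to 4.23 kb long. The diet lists held none of the 9 genes. Only 2 CpGs of the DMR had 5 reads in all libraries. They read 90.5% (71.1 to 97.3) in KO and 41.7% (24.5 to 61.2) in WT at 30 ppm, and 75.5% (61.9 to 85.4) and 59.3% (40.7 to 75.5) at 3 ppm, where the intervals overlap. The DMR was called on these libraries by the authors, so these levels describe it and test nothing. Its first 300 bases hold 4 CpGs.
Ptf1a, chr2:19441379-19441678, plus strand: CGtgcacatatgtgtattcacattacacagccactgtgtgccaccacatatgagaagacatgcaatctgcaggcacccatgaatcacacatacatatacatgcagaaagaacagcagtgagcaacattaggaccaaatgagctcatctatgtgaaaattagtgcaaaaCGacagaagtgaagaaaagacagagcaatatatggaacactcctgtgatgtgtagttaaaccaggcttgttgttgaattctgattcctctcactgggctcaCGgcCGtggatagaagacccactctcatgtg

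**Figure D4:**
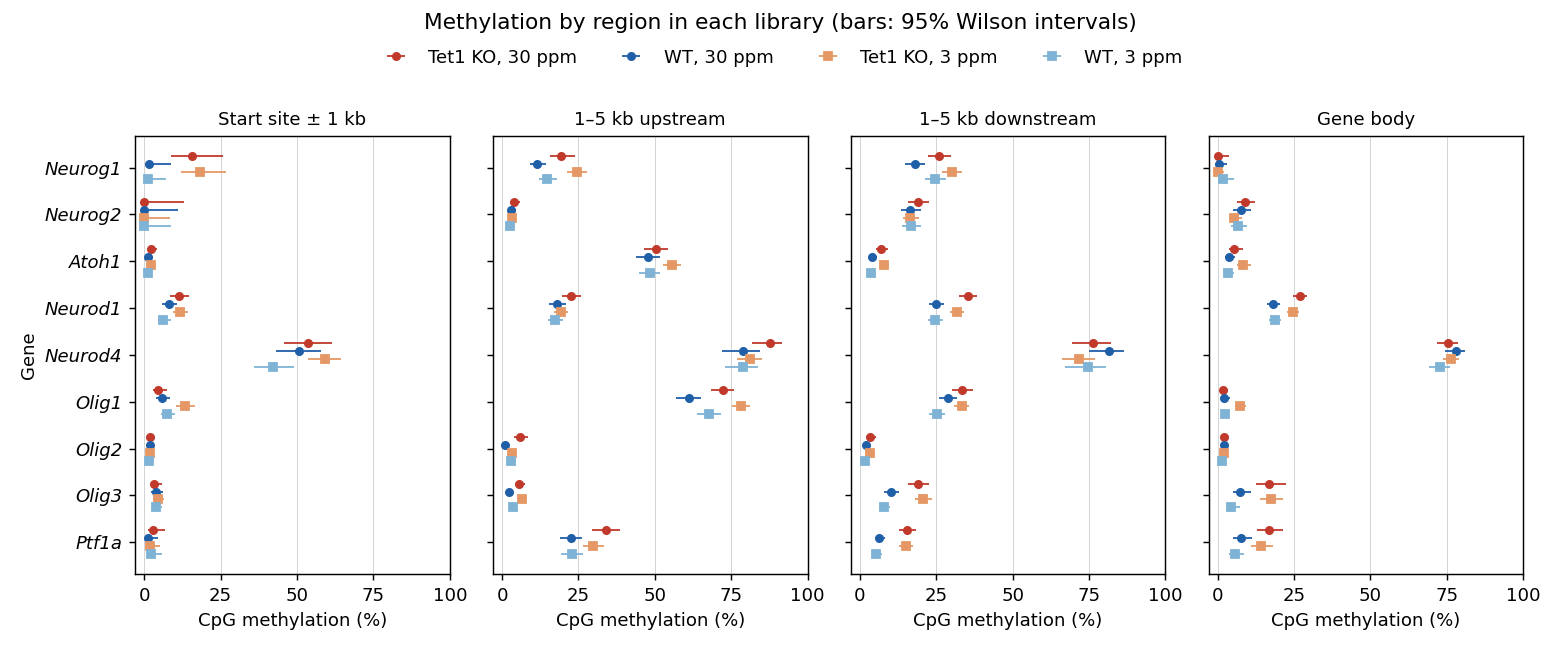
CpG methylation (x axis, %) of the 9 genes (y axis) by region in each of the 4 libraries, with 95% Wilson intervals from read counts as bars. *Neurod4* stands apart at 42.3% or more in its start window, while the start windows of the other 8 genes lie between 0 and 18.3%.

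The bins of 500 bp within 5 kb of the start sites locate the differences. Of 180 such bins, 125 held 3 or more CpGs. KO was above WT at both diets in 73 of them, 58.4%, where the share over the bins of all genes was 42.8%, and below in 13. The 1 bin that was lower in KO by at least 10 points at both diets lay from 3 to 3.5 kb after the *Olig1* start, at 42.9% and 60.2% in KO and 72.1% and 72.4% in WT, over 3 CpGs. KO was higher by at least 10 points at both diets in 15 bins, 12% of the members' bins, against 7.76% of the bins of all genes. These 15 bins came from 6 genes. There were 4 from *Neurog1*, of which 1 holds the CpG at -992, and 3 each from *Olig1* and *Olig3*. *Neurod1* and *Ptf1a* gave 2 each, and *Atoh1* gave 1. *Neurog2*, *Olig2* and *Neurod4* had none. The widest was that of *Ptf1a* from 3 to 2.5 kb before the start, at 63.5% and 43.3% in KO and 23.4% and 12.1% in WT, over 4 CpGs. In bins whose WT level at the other diet was under 5%, the members' median difference was 1.482 points at 30 ppm and 1.41 at 3 ppm, and that of all genes 0.830 and 0.966 points. In bins of 5% to 50% it was 9.01 and 9.26 points. In this class all genes had 10.1 and 8.75 points. In bins of 50% or more the members had 6.41 and 4.12 points, and all genes 2.12 and 0.836. The mix of levels differed, so the shares of 58.4% and 12% were not set against bins of like level. For the 3 ppm score, 39 of 125 member bins and 31303 of 246512 bins of all genes were of 5% to 50%. Within the classes, in the order given, KO was above WT in 62.5%, 89.7% and 86.4% of member bins at 30 ppm. All genes had 60.6%, 84.5% and 63.5%. At 3 ppm the members had 66.7%, 82.1% and 60.9%, and all genes 65.3%, 82.8% and 56.2%.

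A model over all 4 libraries took genotype and diet as factors (limma on the log2 ratio of methylated to unmethylated reads, with 1 residual degree of freedom before moderation). It asks for no minimum difference in points, so it also calls small shifts at low levels. It called 1 member in the start window, against 7.50% of all genes, 3 in the upstream flank, against 3.27%, 4 in the downstream flank, against 7.99%, and 4 in the body, against 7.13%. Each called member was higher in KO. They were *Neurog1* in the start window (log2 difference 2.83 ± 0.285 SE, adjusted p = 0.0261), and *Neurog1*, *Olig2* and *Olig3* upstream, with log2 differences of 0.90, 1.24 and 1.09 and adjusted p of 0.0322, 0.0345 and 0.0115. Downstream they were *Atoh1*, *Olig2*, *Olig3* and *Ptf1a*, and in the body *Atoh1*, *Neurod1*, *Olig3* and *Ptf1a*. *Ptf1a* had the largest differences outside the start window after *Olig3* in the body (1.71 ± 0.191, adjusted p = 0.00373), at 1.52 ± 0.236 downstream (adjusted p = 0.000352) and 1.33 ± 0.134 in the body (adjusted p = 0.00271). Of the regions called by Fisher's exact test, it did not call the *Olig1* upstream flank (adjusted p = 0.0721), the *Ptf1a* upstream flank (0.109), the *Neurod1* downstream flank (0.105) or the *Neurod4* start window (0.263). On the scale of percentages the model called 0, 1, 1 and 2 members in the 4 regions. Without the most influential CpG of each called region it called 0, 2, 3 and 3. Its SE values do not use read depth. That of the *Neurog1* start window does not reflect how few the WT reads were, 1.67% of 60 at 30 ppm and 1.35% of 74 at 3 ppm.

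No difference with diet met the rule. Comparing 30 with 3 ppm, no region was called in KO, where the background was 1.20%, 0.227%, 0.418% and 0.287% for start window, upstream flank, downstream flank and body. None was called in WT, where it was 0.793%, 0.321%, 0.723% and 0.470%. In KO the differences ran from -8.63 to 6.30 points, and 29 of 36 were under 5 points in size. In WT they ran from -6.67 to 8.29 points, and 31 of 36 were under 5. The strongest was *Olig1* in KO. Its body was lower at 30 ppm by 5.34 points (difference -5.34, adjusted p = 0.000534), as was its start window (-8.63 points, adjusted p = 0.00724), both short of 10 points. No member had a genotype difference that the Wald test called different between the diets. Over all genes, 1.35%, 0.696%, 1.70% and 16.1% were called in the 4 regions, and the bodies were not matched for length. Among the members the lowest adjusted p of the Wald test was 0.0659, for the *Olig1* body. This does not show that diet had no effect.

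The low-methylated stretch around each start was measured outwards to the first 5 consecutive CpGs at 50% or more. In all 8 members whose start window was under 10% in both WT libraries, the stretch was narrower in KO at both diets. The background was 83.9% of 3190 such genes at 30 ppm and 78.6% at 3 ppm. With the edge set at 30%, or with 10 consecutive CpGs, it was narrower in 8 of 8 at 30 ppm, but in 6 and 7 of 8 at 3 ppm. The stretches themselves were broad, with medians of 10.9 kb (KO) and 11.4 kb (WT) for 30 ppm, and 12.1 and 13.3 kb for 3 ppm, where all such genes had medians of 2.18 to 2.46 kb. *Ptf1a* went from 17.6 kb in WT to 13.6 kb in KO at 30 ppm and from 17.2 to 14.5 kb at 3 ppm. *Neurod1* went from 7.19 to 3.32 kb at 30 ppm, where the upstream edge lay 484 bp from the start in KO and 4260 bp in WT, but from 7.19 to 7.09 kb at 3 ppm. At *Atoh1* the widths were 7.73 against 8.06 kb and 7.98 against 8.01 kb, and at *Olig1* 4.24 against 4.30 kb and 3.755 against 4.28 kb. *Neurog2* moved most between diets, from 10.7 and 11.1 kb at 30 ppm to 17.65 and 17.9 kb at 3 ppm. Its upstream edge stayed at 8215 bp. The downstream edge moved from 2438 bp (KO) and 2919 bp (WT) to 9435 and 9707 bp. The level of its downstream flank differed little between 30 and 3 ppm, by 2.34 points in KO and -0.105 points in WT. No test of the widths was made.

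**Figure D5:**
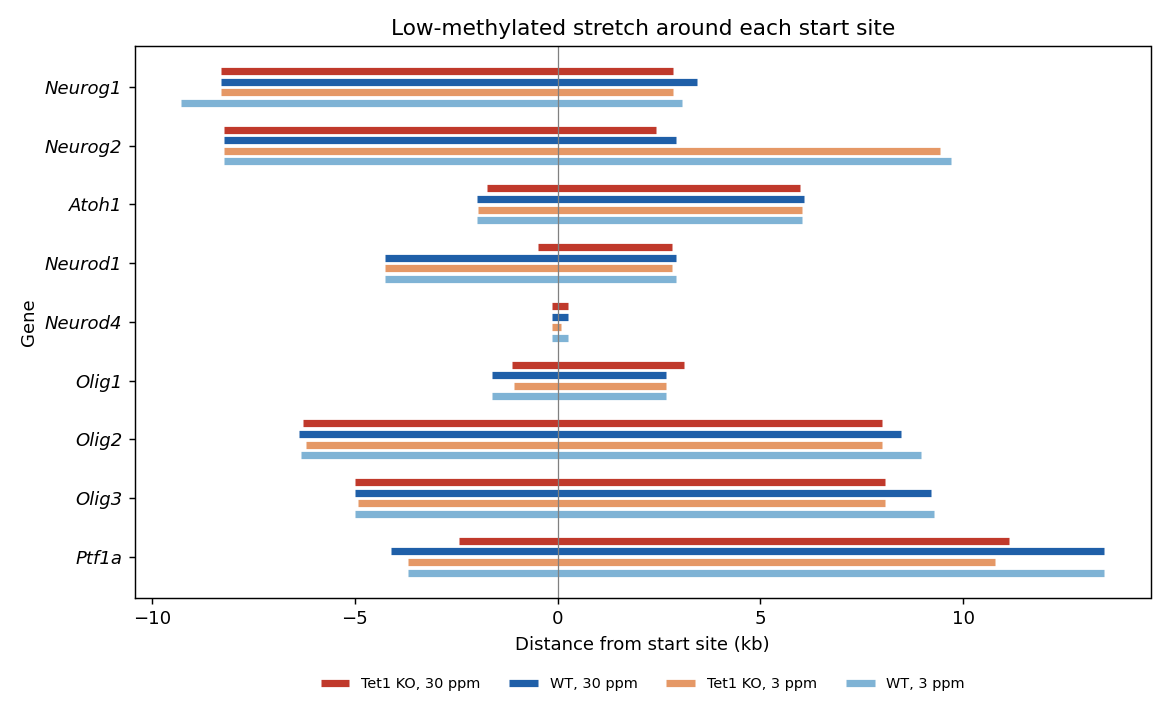
Extent of the low-methylated stretch (x axis, kb from the start site, gene direction to the right) for each gene (y axis) in the 4 libraries, each bar ending at the first 5 consecutive CpGs at 50% or more. *Olig2*, *Olig3* and *Ptf1a* span 13.0 to 17.6 kb, and *Neurod4* 0.211 to 0.403 kb.

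The other genes of the network were read the same way, from lists that cover E-protein partners, inhibitors, Notch ligands and receptors, related bHLH factors, and neuron formation genes. The X-linked *Dcx* was not tested. None of these genes was called lower in KO. Of 3 E-protein partners, 0 start windows were called higher in KO at 30 ppm and 1 at 3 ppm, and 1 downstream flank was called at each diet. Upstream, where the members' median difference lay above that of all genes, 4 of 11 inhibitors were called at 30 ppm and 2 at 3 ppm, 1 and 0 of 8 Notch genes, 5 and 5 of 12 related bHLH factors, and 0 and 1 of 9 neuron formation genes. Downstream, the counts were 3 and 2 inhibitors, 4 and 3 Notch genes, 3 and 4 bHLH factors and 2 and 2 neuron formation genes. In the start window they were 2 and 1 of 11 inhibitors, 2 and 0 of 8 Notch genes, 2 and 2 of 12 bHLH factors and 2 and 1 of 7 neuron formation genes, and in the body 2 and 1 of 10, 1 and 1 of 8, 3 and 2 of 12 and 2 and 1 of 9. E-protein partners had 0 upstream and body calls. Over all genes, at 30 and 3 ppm, 4.80% and 3.45% were called upstream, 9.19% and 6.59% downstream, 15.4% and 16.6% in the start window and 3.53% and 3.41% in the body. The lists are short, so their counts are descriptions.

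By name, the genes called at both diets included some of the inhibitors. The upstream flank of *Hes5*, a repressor of proneural genes, read 56.0% and 49.0% in KO and 35.7% and 34.1% in WT. That of *Hey2* read 26.3% and 24.8% in KO and 11.7% and 12.2% in WT, and the downstream flank of *Hes3* 31.7% and 32.7% in KO and 19.2% and 19.9% in WT. Among the ligands, the downstream flank of *Dll4* read 51.7% and 45.2% in KO and 18.3% and 23.6% in WT, and that of *Dll1*, which proneural factors switch on, 42.2% and 42.5% in KO and 23.0% and 27.0% in WT. Among related bHLH factors, *Atoh8* in the start window read 41.7% and 47.5% in KO and 23.9% and 21.1% in WT. The downstream flank of *Neurog3* read 29.6% and 24.5% in KO and 7.27% and 11.502% in WT, and the upstream flank of *Neurod2* 81.6% and 82.4% in KO and 65.4% and 67.2% in WT. In neuron formation, the start window of *Tubb3*, a neuronal tubulin, read 53.4% and 54.5% in KO and 20.2% and 37.0% in WT, and the downstream flank of *Insm1* 27.6% and 28.6% in KO and 13.7% and 15.9% in WT. These genes were named because KO was called higher at both diets, so the direction is not a result.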

How the data were processed

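Brain tissue of 4 single embryos was sequenced as 1 whole-genome bisulfite library per group, so no error between embryos can be given. Per the submitters' processing notes and the study's methods, the authors trimmed reads with Trim Galore 0.6.10, aligned them to mm10 (GRCm38.p6) and removed duplicates with Bismark 0.23.1, and combined the calls of both strands at every CpG. The tables deposited by the authors give each CpG's methylated fraction, from 0 to 1, and the read count behind it, not normalised. CpGs with 1 read are not listed. Their product was taken as the count of methylated reads. Listed positions count from 0, and all CpGs used in the members' regions lay on a CG of the GRCm38.p6 sequence after adding 1. The DMR lists of the authors hold positions only. A lambda spike-in was not used here.

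Reads were summed per region for autosomal protein-coding genes of GENCODE vM21 with at least 3 CpGs of 5 or more reads in all 4 libraries. A read counts at each CpG it covers, so reads are not independent, and a test on 2 libraries compares those libraries and not the conditions. Fisher's exact test was two-sided, with Benjamini-Hochberg adjustment over all genes of a region. The difference between diets was a Wald test on log odds ratios (0.5 added to every cell). limma 3.58.1 (R 4.3.3) was fitted to log2((methylated + 1)/(unmethylated + 1)). Intervals are Wilson and Newcombe. Levels of 0 are given with the limit that 3 counts allow. Tests used Python 3.11.15, numpy 2.4.6, scipy 1.17.1 and numba 0.67.0, and were tested on simulated reads.

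The 9 genes and the network lists were chosen with earlier results of these data known. Of the lists, the genes named are those called at both diets in a region, at most 3 per list with the largest mean difference. Windows printed for *Neurog1* and *Olig1* are those within 5 kb, free of UTR and with at least 5 CpGs, with the largest mean difference. The other windows, and the single CpGs shown, were chosen after values were seen. Alternatives were minimum depth, thinning of deeper libraries, mean CpG fractions, CpGs that look like strain variants, another start site, a robust z value, another pseudocount or scale, and another edge or run of CpGs for the stretch. Calls without their most influential CpG were added after seeing the data.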

Additional observations from a re-analysis of the deposited data

How the results depend on the processing

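Counts of members called higher in KO depended on settings. At 30 ppm, the start window went from 1 member to 0 with a minimum of 10 reads and with no minimum. It also went to 0 with libraries thinned to the shallowest, with a robust z value and without the most influential CpG. With 10 reads, *Neurog1* had under 3 CpGs in this window, so it was not tested at either diet. The upstream flank went from 2 to 1 when thinned, 0 with the robust z and 1 without that CpG. The downstream flank went from 1 to 4 with 10 reads and 0 without that CpG. The body went from 0 to 1 with 10 reads and when thinned. At 3 ppm, the start window went from 2 to 1 with no minimum, 0 with the robust z and 1 without that CpG. The upstream flank went from 1 to 0 with no minimum, 3 when thinned, 0 with the robust z and 0 without that CpG. The downstream flank went from 1 to 3 with 10 reads, and the body from 1 to 0 with the robust z and without that CpG. The limma counts of 1, 3, 4 and 4 became 0, 1, 1 and 2 on the fraction scale, and the start window 0 without that CpG. The cause was not tested, except that fewer CpGs enter with 10 reads and without a CpG. Over all genes, limma called 1495, 662, 1626 and 1440, with a pseudocount of 5 reads 3156, 1303, 2340 and 2287, and on the fraction scale 0, 452, 977 and 965. For that 0, 5620 start windows had an unadjusted p under 0.05. With 10 reads, Fisher calls of all genes went from 973 to 593 and 700 to 440 upstream at 30 and 3 ppm, and at 3 ppm from 1341 to 889 downstream and 688 to 405 in the body.

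Of 507 alternative values for single member regions, 459 kept their side of the rule with no change of sign, counting 2 that moved to or from 0. A call was lost in 20 and gained in 12, and 16 changed sign, none of a called region. At 30 ppm, with 10 reads the start windows of *Neurod4* and *Olig1* became -0.0594 and 2.98 points. Thinning gave the *Olig1* start 0.531. Mean CpG fractions gave the *Olig1* and *Olig3* starts 0.553 and 0.0644 and the *Olig2* body -0.265. No minimum gave the bodies of *Neurog1*, *Neurog2* and *Olig2* 0.149, -0.521 and -0.410. At 3 ppm, thinning gave the *Olig2* and *Olig3* starts -0.228 and -0.390, and 10 reads the *Olig2* upstream flank -1.39. Mean fractions gave -0.583 for *Neurod4* upstream, 0.174 for *Neurog2* downstream and -0.444 for the *Neurod4* body, and no minimum 0.352 for *Neurog2* downstream. Of the counts, 70 of 97 alternatives stayed within 1.5 times. No paired analysis was possible because the labels give no replicate numbers and each group has 1 library. Among the start windows, depth limited those of *Neurog2*, *Neurog1* and *Ptf1a* most. That of *Neurog2*, with 26 to 41 reads at 0, allows levels of 7.32% to 11.54%.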
